A study of Mus musculus with 68 samples.

Results

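The 56 mammary tumours described here were divided by the array level of Apobec3, a gene of chromosome 15, into 24 with a high level and 32 with a low level. They were chosen from 68 arrays by 2 values. Arrays were kept if the mean of their 18S ribosomal RNA control probe sets lay below 8, which left out 12, and the kept arrays were grouped by whether the single Apobec3 probe set lay above 8.8 or at 8.8 or below. All values are log2 values of the deposited table, where a difference of 1 is a doubling. Because the Apobec3 value formed the groups, its own difference is a description and was not tested.

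The tumours arose spontaneously in mice that carried MMTV-PyMT, a transgene in which the mammary tumour virus promoter drives the polyoma middle T oncogene mainly in mammary epithelium. The animals of both groups came from the backcross ((NZB x PyMT) x FVB), so both carry the transgene and descend from the same strains. The labels give no genotype, age, sex, treatment or tumour stage that differs between animals. In such a cross, if the PyMT line is on FVB, an animal carries at each autosomal locus either FVB alone or NZB beside FVB. The genotype at chromosome 15 was not measured here, and the 2 Apobec3 groups are groups of arrays and not of known genotypes. The 56 kept arrays carry 56 different animal numbers and are 1 array per tumour.

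Apobec3 is the only APOBEC3 gene of the mouse and encodes a cytidine deaminase that enters retroviral particles and restricts their replication, mammary tumour virus included. It underlies the resistance locus Rfv3, and its expression is known to differ between inbred strains. D730005E14Rik, an RNA with no protein product, lies beside it on the opposite strand. On either side lie Cbx6 and Cbx7, which encode chromobox proteins of Polycomb repressive complexes. Genes this close together are inherited as a block in a backcross, while genes far along the chromosome are separated by recombination in some animals.

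The promoter windows of Apobec3 and D730005E14Rik are shown because the transcripts overlap head to head and their levels divided the same tumours, as described further on. Each window runs from 250 bases before to 50 bases after the annotated start and is read 5′ to 3′ on the gene's own strand, from RefSeq (GRCm38.p6). That reference is C57BL/6J, which is neither parent of the cross, so the letters may differ from those of these animals. Capitals mark matches to AANNGAAA, the core recognised by interferon regulatory factors, which reads TTTCNNTT on the other strand. The Apobec3 window lies at chr15:79892158-79892457 on the plus strand, and the D730005E14Rik window at chr15:79893089-79893388 on the minus strand.
Apobec3: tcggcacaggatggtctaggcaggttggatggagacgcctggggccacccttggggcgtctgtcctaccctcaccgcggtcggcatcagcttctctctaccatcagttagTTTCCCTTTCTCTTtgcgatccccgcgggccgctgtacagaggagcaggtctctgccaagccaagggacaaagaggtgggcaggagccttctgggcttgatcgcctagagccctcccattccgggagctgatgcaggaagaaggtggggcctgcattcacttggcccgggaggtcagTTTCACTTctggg
D730005E14Rik: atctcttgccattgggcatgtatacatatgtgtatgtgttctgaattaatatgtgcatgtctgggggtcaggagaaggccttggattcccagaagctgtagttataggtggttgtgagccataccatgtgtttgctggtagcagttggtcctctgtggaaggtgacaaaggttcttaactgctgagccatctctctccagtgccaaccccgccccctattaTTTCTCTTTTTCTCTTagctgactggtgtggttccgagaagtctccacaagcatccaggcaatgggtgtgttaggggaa

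The annotated starts are 730 bases apart, with the D730005E14Rik transcript starting inside Apobec3 and running back across the Apobec3 start. The Apobec3 window holds 3 matches to AANNGAAA or TTTCNNTT. Of these, 2 overlap by their ends and begin 140 and 134 bases before the start, and the other lies after it. The D730005E14Rik window holds 2, side by side, 29 and 21 bases before its start. Of 32851 windows in the reference set, 23.9% hold at least 1 such match. A match to TTCNNNGAA, which reads the same on both strands, occurs 2 times in the D730005E14Rik window and 0 times in that of Apobec3, against at least 1 in 8.3% of all windows. TATAAA, read on both strands and present in 13.6% of windows, is in neither. CCAAT, read on both strands and present in 37.4%, occurs 1 time in the D730005E14Rik window. Apobec3 has a second annotated window, not shown, which holds 0 matches to AANNGAAA, 1 to TATAAA and 1 to CCAAT. The number of CG pairs was 13 for the Apobec3 window shown and 2 for D730005E14Rik, against 31 for Cbx6, 33 for Cbx7 and a median of 7 over all windows.

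The Apobec3 level ran from 8.06 to 8.70 in the low group, with a median of 8.37, and from 8.8 to 9.99 in the high group, with a median of 9.33. The means were 8.38 ± 0.15 (SD, n = 32) and 9.30 ± 0.26 (SD, n = 24). The 3 low arrays next to the line stood at 8.60, 8.66 and 8.70, and the 3 high arrays next to it at 8.8, 8.84 and 8.94, the first just above the line before rounding. Of these 6, the 3 below the line and the lowest 2 above it belong to 1 set of 8 arrays.

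Such sets were found from values shared by probe sets on many chromosomes and are not named in the labels. The left-out arrays form array set 2, and the kept arrays fall into array set 1, with 17 high and 22 low arrays, array set 3, with 4 and 5, and array set 4, with 3 and 5. The 18S control mean was 5.93 ± 0.41 (SD, n = 24) in the high and 5.88 ± 0.39 (SD, n = 32) in the low. Titles ending in R, a mark without a stated meaning, were carried by 3 high and 5 low arrays, and animal numbers of the upper range by 6 and 9. These labels run with the sets, since all 8 kept arrays with R are among the 9 of array set 3, and all 8 arrays of array set 4 have upper numbers, against 4 of 39 in array set 1. Epithelial markers of the labelled tissue were bright, with the keratins Krt8 from 11.90 to 12.94 and Krt18 from 11.82 to 12.81 over the kept arrays and the adhesion molecule Epcam from 11.12 to 12.43, where the median of all values in the table is 5.42.

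In array set 4, D730005E14Rik went against the grouping of 2 arrays. In that set the Apobec3 values of the 5 low arrays were 8.50, 8.50, 8.60, 8.66 and 8.70, above the low median of 8.36 in array set 1 and 8.25 in array set 3. The 3 high arrays stood at 8.8, 8.84 and 9.99. D730005E14Rik was at 4.02 and 3.80 in the arrays at 8.8 and 8.84, within the range of the 5 low arrays of that set, 3.76 to 4.11, and at 5.74 in the array at 9.99. Cbx6 was at 8.51 and 8.58 in the same pair, against 8.12 to 8.50 in the low arrays and 8.81 in the third high array. Their Cbx6 values lay above those low arrays and within the low group's overall range, which ended at 8.76. Cbx7 was at 6.25 and 6.44 in the pair, against 6.15 to 6.34 in the low arrays and 6.57 in the third high array. These arrays, from animals 4950 and 4956, are therefore high by the rule and at the low group's level in D730005E14Rik, and they are included below except where the text says otherwise. Without them the differences of the 12 called genes described below ran from -0.43 to 1.83, kept their signs, and passed the threshold in 11 of the 12, with Sh3bp1 the exception.

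The genome-wide comparison asked which other genes differed between the groups, near Apobec3 and elsewhere. Of 12560 genes tested with limma, array set as a covariate, 12 passed an adjusted p of 0.05 (Benjamini-Hochberg), which is 0.0955% of those tested. In the high group 8 were higher (0.0637%) and 4 lower (0.0318%). All 12 lay on chromosome 15, with 11 of the 221 tested genes within 10 Mb of Apobec3 and 1 of the other 290 of that chromosome. The 17 genes with the smallest p were all on chromosome 15, and the next was Cldn10 of chromosome 14, a tight junction protein, at a difference of 0.78 (adjusted p = 0.23 by limma). On other chromosomes limma called 0 of 12049 genes, with 357 at an unadjusted p under 0.05 (2.96%).

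**Figure D1:**
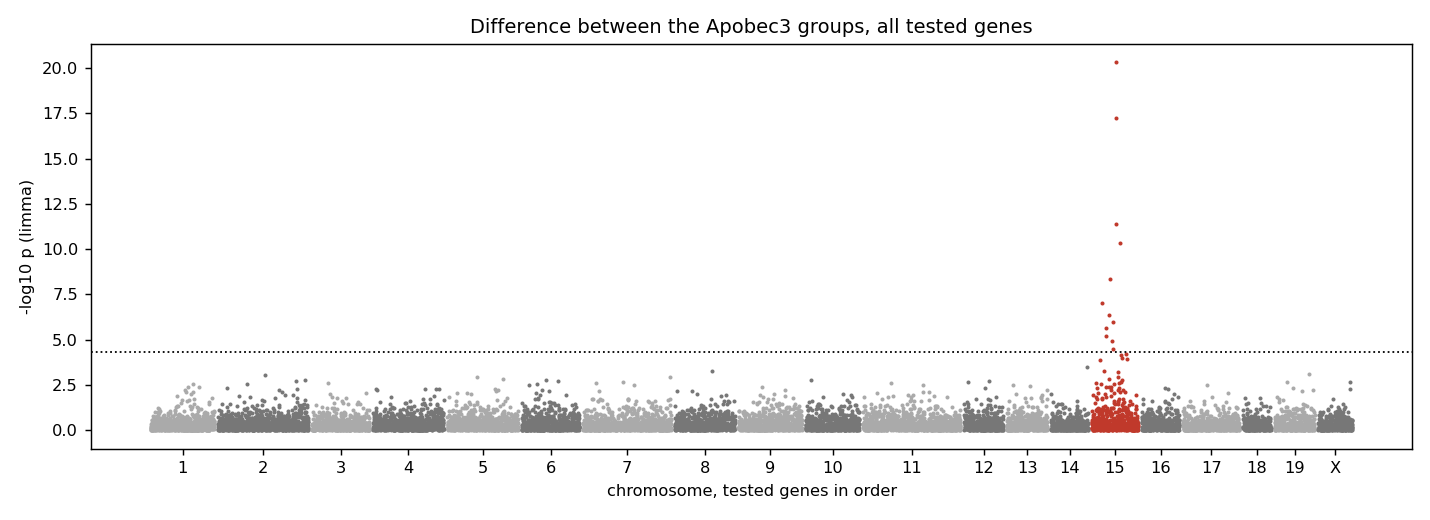
Each point is one of 12514 tested genes on chromosomes 1 to 19 and X, placed in chromosome order on the x axis, with -log10 of the unadjusted limma p for high against low Apobec3 on the y axis, and chromosome 15 in red. The dotted line lies between the last of the 12 genes that passed the adjusted threshold and the first that did not, and the points above it are all on chromosome 15.

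Within 10 Mb of Apobec3, 45 of 221 genes (20.4%) had an unadjusted p under 0.05, against 3.36% of all tested genes and 20 of 290 (6.9%) on the rest of chromosome 15. These genes share one stretch of chromosome and are not independent. The median difference was 0.014 for the local genes and -0.00056 for all genes, and the median size of the difference, sign aside, was 0.046 and 0.033. Without the arrays of animals 4950 and 4956, limma called 14 genes, 11 of them among the 12.

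D730005E14Rik, the overlapping RNA, had the largest difference of the 12. It ran from 3.62 to 4.43 in the low group, with a median of 4.05, and from 3.80 to 6.60 in the high group, with a median of 5.89. The groups overlapped only through the arrays of 4950 and 4956, and without that pair the lowest high value was 4.84. It was then the only one of the 12560 genes tested whose groups did not overlap (0.00796%), and with the pair there were 0. That count leaves out genes too dim to be tested. Every low-group value of D730005E14Rik lay below 5.42, the level of the filter on dim genes. D730005E14Rik was therefore tested only because of its values in the high group, and under the stricter filter it was not tested. The fitted difference was 1.66 ± 0.11 (SE, n = 24 and 32), a 3.15-fold higher level, with adjusted p = 6.19e-17 by limma. The difference was 1.83 ± 0.081 (SE) without the pair. A link of this gene with Apobec3 was known from these arrays when the groups were set, so its difference adds no independent support.

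The division of tumours by D730005E14Rik alone matched the Apobec3 groups in 53 of 56 arrays. A least-squares split of its values placed 21 arrays in an upper set, the lowest at 5.09, and 35 in a lower set, the highest at 4.84. All 21 upper arrays were in the high group, and the 3 that differed were high by Apobec3 and low by D730005E14Rik. They were the arrays of 4950, 4956 and 3853, the last with Apobec3 at 8.94 and D730005E14Rik at 4.84.

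**Figure D2:**
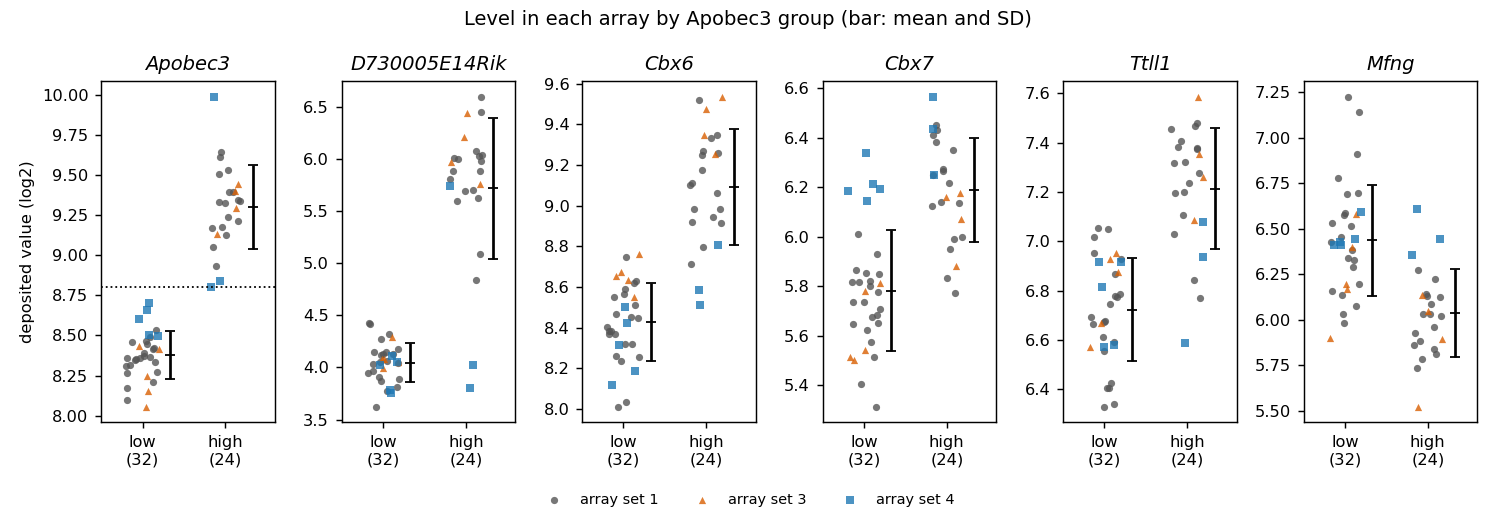
Each point is an array, with its deposited log2 value on the y axis and the Apobec3 group on the x axis (32 low, 24 high), marked by array set, and the bars are the group mean and SD. The dotted line in the first panel is the division at 8.8. D730005E14Rik separates at the same arrays except for low values in the high group, Cbx6, Cbx7 and Ttll1 are shifted up with overlap, and Mfng is shifted down.

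Both chromobox genes were higher in the high group. Cbx6, on the D730005E14Rik side, ran from 8.01 to 8.76 in the low group (median 8.43) and from 8.51 to 9.54 in the high group (median 9.11). The ranges met between 8.51 and 8.76. The difference was 0.65 ± 0.051 (SE, n = 24 and 32), 1.57-fold, with adjusted p = 3.44e-14 by limma, and 0.69 without the arrays of 4950 and 4956. A second Cbx6 probe set gave means of 8.85 ± 0.20 and 8.12 ± 0.21 (SD), a difference of 0.73. The reference annotates a read-through gene, Npcd, over Cbx6 and its neighbour Nptxr, so these probe sets may take in its transcripts.

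Cbx7, next to Apobec3 on the other side, ran from 5.31 to 6.34 (median 5.78) in the low group and from 5.77 to 6.57 (median 6.20) in the high group. The groups overlapped over much of their ranges. The difference was 0.42 ± 0.047 (SE, n = 24 and 32), 1.34-fold, with adjusted p = 1.61e-08 by limma, and 0.45 without that pair of arrays. The 3 Cbx7 probe sets differed by 0.47, 0.41 and 0.10 between the group means, the last on a probe set near 3.5, at 3.45 and 3.55. In the reference the Cbx7 and Apobec3 genes overlap at their 3′ ends. In array set 4 Cbx7 stood at 6.15 to 6.34 in the 5 low arrays, inside the high group's range.

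The shift did not extend evenly through the nearest genes. Of the 5 tested genes next to Apobec3 on each side, D730005E14Rik, Cbx6 and Cbx7 passed the threshold. On the side of Cbx6, Dnal4, a dynein light chain, differed by -0.04 (95% interval -0.11 to 0.03), Sun2, a nuclear envelope protein, by -0.03 (-0.12 to 0.05) and Gtpbp1, a GTP-binding protein, by -0.03 (-0.11 to 0.05). On the other side Pdgfb, a platelet-derived growth factor chain, differed by 0.08 (-0.08 to 0.25). Syngr1, a synaptic vesicle protein, differed by -0.03 (-0.12 to 0.06). Tab1, a partner of the kinase TAK1, and Mief1, a regulator of mitochondrial fission, both differed by 0.00, with intervals of -0.07 to 0.07 and -0.06 to 0.05. For these 7 genes the adjusted p was 1.0 by limma, and the intervals bound any difference to less than that of Cbx7.

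**Figure D3:**
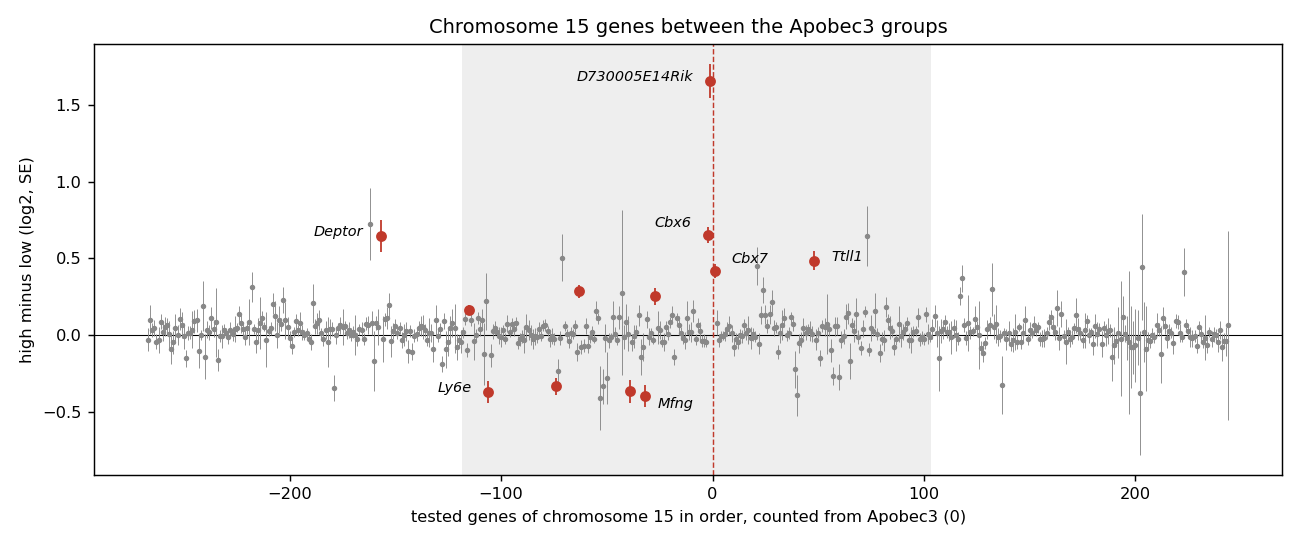
The high minus low difference (log2, bars are SE) of each of the 511 tested genes of chromosome 15, in gene order counted from Apobec3 at 0, with genes past the threshold in red and the shaded band marking genes within 10 Mb. D730005E14Rik stands at 1.66 next to Apobec3, and called genes lie among neighbours close to 0 on both sides.

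Farther along the local stretch, 8 more genes passed, 4 of them higher. Ttll1, part of a tubulin polyglutamylase, lay 48 tested genes away on the Cbx7 side. It ran from 6.33 to 7.05 (median 6.72) in the low group and from 6.59 to 7.59 (median 7.27) in the high group, so the groups overlapped, and the difference was 0.49 ± 0.060 (SE, n = 24 and 32; adjusted p = 1.52e-07 by limma). Its probe set may cross-hybridise, by the ending of its name, and its other probe sets differed by 0.31 and 0.05 between the group means. Mfsd3, a member of a membrane transporter family, lay 63 tested genes away on the other side. It ran from 6.30 to 7.08 in the low and from 6.56 to 7.36 in the high group, with a difference of 0.29 ± 0.041 (SE; adjusted p = 1.12e-05 by limma).

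Dennd3, an activator of a Rab GTPase, was 0.17 ± 0.033 (SE) higher, with the low group from 7.20 to 7.68 and the high group from 7.34 to 7.81 (adjusted p = 0.00762 by limma, and 0.19 in array set 1 alone). Sh3bp1 was 0.26 ± 0.056 (SE) higher, with overlapping ranges of 6.16 to 7.15 and 6.50 to 7.62. Sh3bp1 was the weakest of the 12 calls, at adjusted p = 0.0326 by limma, and without the arrays of 4950 and 4956 it was 0.0684. The array of 4950 holds the highest Sh3bp1 value of all 56.

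The other 4 local genes were lower where Apobec3 was high. Mfng, manic fringe, a glycosyltransferase that modifies Notch receptors, ran from 5.90 to 7.23 (median 6.42) in the low group and from 5.52 to 6.61 (median 6.03) in the high group. Its difference was -0.39 ± 0.071 (SE, n = 24 and 32; adjusted p = 0.00158 by limma), with wide overlap of the groups. With the Apobec3 value as a number in place of the groups it did not pass, at adjusted p = 0.0564 by limma. Ly6e, an interferon-inducible surface protein, ran from 12.29 to 13.21 (median 12.82) in the low and from 11.65 to 13.17 (median 12.36) in the high group, a difference of -0.37 ± 0.070 (SE; adjusted p = 0.00313 by limma). Its second probe set was lower as well, with means of 8.83 ± 0.57 and 8.20 ± 0.45 (SD), and in the fit that used it Ly6e differed by -0.64 (adjusted p = 0.0305 by limma). Ly6e did not pass with the Apobec3 value as a number (-0.29, adjusted p = 0.183 by limma) or with all arrays (-0.32, adjusted p = 0.0776). The fit with all arrays grouped the left-out arrays at 8.8 as well, where 1 of them lies above the line.

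Fbxl6, an F-box protein, ran from 7.05 to 7.89 in the low group and from 6.57 to 8.23 in the high group, and differed by -0.33 ± 0.058 (SE; adjusted p = 0.000793 by limma). Its highest high value, 8.23, was that of animal 4950, and without the arrays of 4950 and 4956 the high group ended at 7.48. Tst, the mitochondrial enzyme thiosulfate sulfurtransferase, ran from 7.53 to 8.77 in the low group and from 7 to 8.58 in the high group and differed by -0.36 ± 0.076 (SE; adjusted p = 0.0141 by limma). The Tst call ended without array set in the fit (adjusted p = 0.244), in array set 1 alone (0.205) and with the Apobec3 value as a number (0.0802). The highest high values of Mfng, 6.61, and Ly6e, 13.17, were those of animal 4956.

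Deptor was the 1 call on chromosome 15 beyond 10 Mb. It encodes an inhibitor of the kinase mTOR and lies on the Cbx6 side with 156 tested genes between it and Apobec3. It ran from 7.64 to 9.48 (median 8.51) in the low group and from 7.84 to 9.98 (median 9.29) in the high group. The groups overlapped over most of their range, with 6 high and 4 low arrays on the other group's side of the midpoint of the means. The difference was 0.65 ± 0.11 (SE, n = 24 and 32), 1.57-fold, with adjusted p = 0.000187 by limma. Of its 6 probe sets 5 were higher in the high group, by 0.17 to 0.72 between means, and the dimmest, near 2.7, differed by -0.02. With the probe set of largest SD the difference was 0.63 and did not pass (adjusted p = 0.476 by limma).

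The next 5 genes by p were also on chromosome 15 and missed the threshold. Ano6, a membrane scramblase, differed by 0.26 ± 0.060 (SE; adjusted p = 0.0598 by limma) and Parvg, an actin-linked adaptor of blood cells, by -0.26 ± 0.061 (SE; 0.0653). Trmu, a tRNA-modifying enzyme of mitochondria, differed by 0.16 ± 0.037 (SE; 0.0898), Gm17546 by 0.37 ± 0.089 (SE; 0.0921) and Dcstamp, a cell fusion protein of osteoclasts, by -0.34 ± 0.083 (SE; 0.0924). Without the arrays of 4950 and 4956, Parvg (adjusted p = 0.045), Trmu (0.0297) and Gm17546 (0.015) passed.

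Single tumours differed from their group at part of the 12 genes. An array was set on the side of the group whose mean lay nearer, gene by gene, with values not adjusted for array set. Because the genes were called from these groups, the counts describe the arrays and test nothing. High arrays had a median of 2 of the 12 genes on the low side, from 0 to 9, and low arrays a median of 2 on the high side, from 0 to 6. The array of 4956 had 9 and that of 4950 had 8 genes on the low side. The array of animal 2703, with Apobec3 at 9.12, came next with 6, among them Cbx6, Ttll1 and Deptor. Among low arrays, those of 3769 (Apobec3 at 8.17) and 4957 (8.44) each had 6 genes on the high side. By gene, D730005E14Rik and Cbx6 had 3 high and 0 low arrays on the other side. Cbx7 had 4 and 6, Ttll1 had 4 and 3, and Tst had 8 and 8. Some of these counts went with array set. The 5 low arrays of array set 4 had a mean Cbx7 of 6.21, on the high group's side of the midpoint, 5.99. For Tst, the 5 low arrays of array set 3 had a mean of 7.67, on the high group's side of 7.99.

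**Figure D4:**
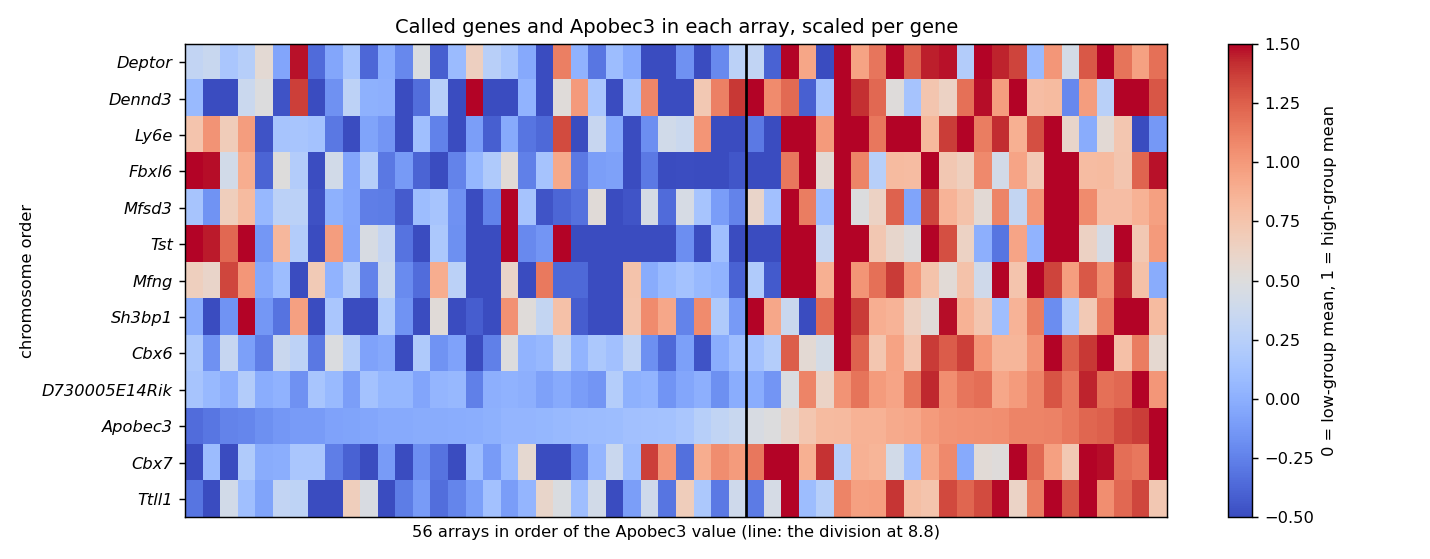
Rows are Apobec3 and the 12 called genes in chromosome order, columns are the 56 arrays from the lowest to the highest Apobec3 value, and colour gives each value on a scale where 0 is the gene's low-group mean and 1 its high-group mean. The vertical line is the division at 8.8. The rows of D730005E14Rik and Cbx6 change near the line, and 2 columns to its right stay at the low colour. The rows of the other called genes are more mixed.

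Amhr2, a hormone receptor gene near the distal end of chromosome 15 whose level also falls into separate sets, was set against the Apobec3 groups as a marker of that end. Its upper set of 27 arrays held 16 high and 11 low arrays, and its lower set of 29 held 8 and 21, so 37 of 56 arrays lay on the same side. The Amhr2 difference was 0.41 ± 0.16 (SE; adjusted p = 1.0 by limma).

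Within array sets the signs of the 12 differences were the same in array sets 1 and 3 for all 12 and in array set 4 for 10. The 12 genes were called from these same arrays, so this agreement is a description and adds no independent support. D730005E14Rik differed by 1.79 ± 0.10 (SE) in array set 1 and 2 ± 0.14 (SE) in array set 3, with adjusted p = 1.99e-16 and 0.000713 by limma. In array set 4, where the pair of arrays named above makes up most of the high group, it differed by 0.58 ± 0.39 (SE; adjusted p = 0.952). Cbx6 differed by 0.69 ± 0.063, 0.75 ± 0.085 and 0.33 ± 0.12 (SE) in the same order. Mfng and Ly6e were the exceptions in sign, at 0.01 and 0.14 in array set 4. Limma called 10 genes in array set 1 alone, 2 in array set 3 alone and 0 in array set 4 alone.

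The 12 arrays left out for their high 18S values did not enter the fit that called the genes. The link of D730005E14Rik with Apobec3 was known beforehand, so its result here adds no independent support either. The line at 8.8 left 1 of the 12 arrays on its upper side, so the comparison at that line could not be made. Their Apobec3 values showed a gap of their own, with 6 arrays from 7.72 to 7.91 and 6 from 8.37 to 9.19, and dividing them there was chosen after the values were seen. Across that gap D730005E14Rik ran from 4.26 to 5.18 (median 4.91) in the lower 6 and from 5.42 to 6.39 (median 5.71) in the upper 6. The sets did not overlap, and the means, 4.83 ± 0.35 and 5.82 ± 0.35 (SD, n = 6 and 6), differed by 0.99 with exact permutation p = 0.00216, two-sided, the smallest the design allows. The levels were not those of the kept arrays. The lower 6 had a D730005E14Rik median above the whole kept low group, which ended at 4.43. Their Apobec3 values lay below that group, which began at 8.06. The 18S level was not compared between the lower and upper 6.

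The genes beside D730005E14Rik moved the same way. Cbx7 ran from 4.96 to 6.01 in the lower 6 and from 6.10 to 6.51 in the upper 6, without overlap (exact permutation p = 0.00216). Cbx6 ran from 7.67 to 8.28 and from 8.21 to 8.64 and overlapped slightly (difference 0.51, exact permutation p = 0.00649). Fbxl6 was lower, from 6.70 to 6.97 against 6.97 to 7.04 (difference -0.19, exact permutation p = 0.00433). Deptor differed by 0.43 (exact permutation p = 0.0866) and Ttll1 by 0.38 (0.106). The 12 genes were tested and these p are not adjusted. Of the 12, 10 had the sign seen in the kept arrays, and Mfsd3, at -0.01, and Sh3bp1, at -0.15, did not. All 12 lie on chromosome 15 and are not independent, and the share of equal signs over all tested genes was not computed. Across all 12560 genes limma called 0 in these 12 arrays, with 573 at an unadjusted p under 0.05 (4.56%).

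**Figure D5:**
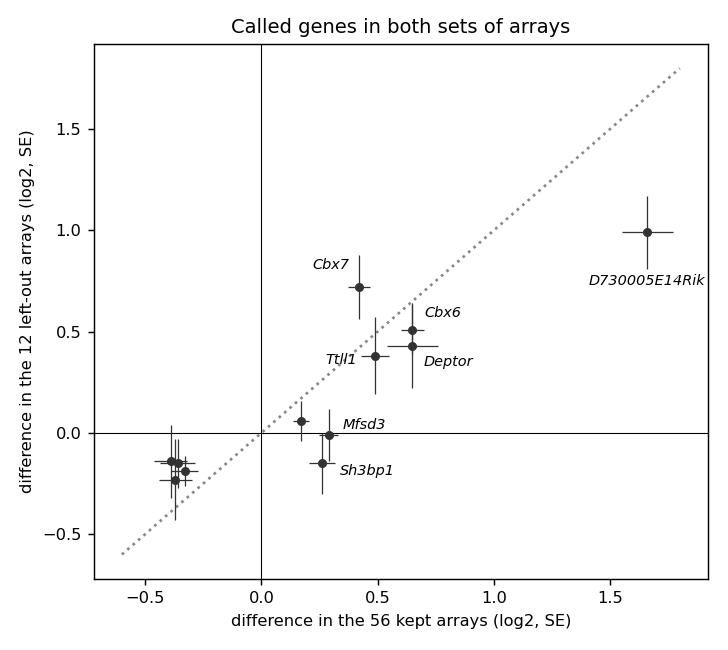
Each point is one of the 12 called genes, with its high minus low difference in the 56 kept arrays on the x axis and across the gap in the 12 left-out arrays on the y axis (log2, bars are SE), and the dotted line marks equal values. D730005E14Rik lies at 1.66 and 0.99, and 10 of the 12 genes lie in the quadrants of equal sign.

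Animals 3296 and 3351 have 1 kept and 1 left-out array each, so the left-out arrays are not all of other animals. Animal 3296 was low in both, at 8.42 among the kept and 7.72 among the left-out arrays. Animal 3351 was high in both, at 9.24 and, above the gap, at 8.42. Its D730005E14Rik values were 6.01 and 5.66, and those of 3296 were 4.05 and 5.01.

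Lists of other genes held no gene that passed. Of 26 lists other than the neighbours of Apobec3, with 324 tested genes, limma called 0 genes, and 4 had an unadjusted p under 0.05, where the share over all tested genes was 3.36%. The list medians ran from -0.14 to 0.41, against -0.00056 for all tested genes. In bulk tissue fewer cells of a type and less RNA per cell cannot be told apart, and this holds for each cell type named here.

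The other cytidine deaminases did not pass. Apobec1, the editing enzyme of apolipoprotein B RNA, had medians of 7.05 and 7.14 in the low and high groups and a difference of -0.01 (95% interval -0.15 to 0.14). Apobec2, a muscle member of the family, ran from 4.13 to 9.73 in the low and from 5.32 to 8.88 in the high group, with a difference of 0.49 (-0.13 to 1.11). A second Apobec2 probe set, not the one tested, had medians of 6.16 in the low and 6.19 in the high group. Apobec4 stayed between 3.21 and 3.83 in all kept arrays and was too dim to be tested. The 15 tested genes of uracil and base excision repair, the pathway that removes deaminated cytosine from DNA, had a median difference of -0.02. Ung, its uracil glycosylase, differed by -0.13 (-0.27 to 0.01) and Xrcc1 by 0.07 (-0.02 to 0.16).

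Genes of antiviral defence did not pass either. Among 23 tested genes of retrovirus restriction and sensing the median was 0.00, from -0.15 to 0.14, with Isg20, an exonuclease, at 0.14 and the DNA sensor Tlr9 at -0.03. Among 15 interferon response genes it was also 0.00, with Irf9, part of the interferon-activated transcription factor, at -0.07 (-0.27 to 0.13) and Ifit3 at 0.16 (-0.36 to 0.68). The SD of Ifit3 was 0.84 within the low group and 1.14 within the high group.

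No immune or stromal marker passed. The medians were -0.06 for 10 B and plasma cell genes, -0.04 for 9 T and NK cell genes, -0.06 for 14 macrophage genes, 0.02 for 8 neutrophil genes and -0.14 for 5 MHC class II genes. The MHC invariant chain gene Cd74 differed by -0.17 and H2-Ab1 by -0.13, Cd79a and Blnk of B cells by -0.13 and -0.16, and Cd3g and Zap70 of T cells by -0.23 and 0.04. Cd68 and Cd14 of macrophages differed by -0.11 and -0.12, and S100a8 and Mmp9 of neutrophils by -0.24 and -0.06. For fibroblast and matrix genes the median was -0.05, with Col1a1 at -0.14 and Fn1 at 0.13, and for endothelium -0.03, with Cldn5 at -0.09 and Tie1 at -0.06. Adipocyte genes had a median of -0.13, with Lpl at -0.17 and Fabp4 at -0.23.

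No mammary lineage gene passed. Luminal genes had a median of -0.04, with the claudins Cldn3 and Cldn7 both at -0.10, basal genes 0.06, with the stem cell receptor Lgr5 at 0.24 and the peptidase Mme at 0.29, and milk proteins -0.02, with Lalba at -0.32 and Csn3 at -0.10. Skeletal muscle genes had the largest median of these lists, 0.41, with 15 of 16 above 0 and 0 called by limma or at an unadjusted p under 0.05. Their mean level over the list ran from 4.33 to 12 in low and from 4.62 to 11.84 in high arrays, so the groups covered nearly the same range. The 95% interval of a muscle gene reached 1.12 to each side in the median, with Myh4 at 0.71 (-0.75 to 2.18) and Mb at -0.40 (-0.82 to 0.01). Salivary gland genes had a median of 0.14, with Dcpp1 at 0.55 (0.01 to 1.10) and Pip at 0.53, and skin and hair genes -0.04, with Krt1 at 0.45 and Lor at 0.11.

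Growth and metabolic programmes did not pass. Mitosis genes had a median of -0.06, with Plk1 at -0.10 and Mki67 at -0.08, and DNA replication genes -0.04, with Rrm2 at -0.15 and Mcm3 at -0.09. Hypoxia and glycolysis genes had 0.04 (Aldoa 0.14, Car9 0.30), the integrated stress response 0.03 (Trib3 0.26, Chac1 0.30), cholesterol synthesis 0.02 (Idi1 -0.15, Insig1 0.14) and the cytosolic ribosome 0.01 (Rps14 0.01, Rpl6 0.02). Trib3, a pseudokinase induced by amino acid stress, had the smallest unadjusted p of these 26 lists, 0.0111 by limma, with an adjusted p of 1.0. Signalling partners of middle T had a median of 0.00, with the phospholipase Plcg1 at 0.06 and cyclin D1, Ccnd1, at -0.07. Genes reported to modify metastasis had -0.03, with the tetraspanin Cd82 at -0.11 and Cnot2, a subunit of the Ccr4-Not complex, at 0.04.

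In the list of Apobec3 neighbours, 4 of 49 tested genes passed, all higher in the high group, and 12 had an unadjusted p under 0.05, with a median difference of 0.03. Over all genes within 10 Mb these shares were 4.98% and 20.4%, and over all tested genes 0.0955% and 3.36%. The 4 are D730005E14Rik, Cbx6, Cbx7 and Sh3bp1, already described. The list's mean level ran from 7.71 to 8.14 in low and from 7.84 to 8.24 in high arrays.

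A probe set reads hybridised RNA, and in a cross of strains a different amount of RNA and a different sequence under the probes cannot be told apart. The 95% interval of a gene reached 0.10 to each side of its fitted difference in the median over all tested genes.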

How the data were processed

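RNA of 68 mammary tumour arrays was measured on Affymetrix arrays with 45101 probe sets. The authors summarised the probes by RMA, per the submitters' processing notes, in a version not given in the sources used here. No log base is named, so the deposited values, from 1.68 to 14.57, were taken to be log2. Signal over background was not used, and what limits the precision was not examined. Probe sets were named from the platform annotation, 34958 with 1 gene, and 34754 of those matched the reference table. That table served for names, for gene order and for the distance in bases from Apobec3 that defined the local genes. The build of the array is not given, so the positions are those of the reference. Each gene was represented by the probe set with the highest mean over the 56 kept arrays and was tested if its 95th percentile lay above 5.42, the median of all values. Apobec3 itself was left out.

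Arrays were grouped as described above, 1 array per animal, and nothing else says how the tumours were sampled. The fit was limma 3.58.1 (R 4.3.3; lmFit and eBayes) with array set as a covariate, and p-values were adjusted over all 12560 genes by Benjamini-Hochberg. Array sets are divisions that at least 20 probe sets, spread over 10 or more chromosomes, made identically and with a wide gap (Ashman's D over 4.5). The script was tested on simulated data. Exact permutation tests used scipy 1.17.1. Differences are high minus low. The groups, the gene lists and the rule for named genes were chosen with earlier results of these data known. The rule names called genes, the 5 tested genes on each side of Apobec3, up to 4 called or else the 2 genes of smallest p in each list, and the APOBEC family. The genes that missed the threshold, Cldn10, Amhr2, Npcd and the keratins were named after their values were seen. Alternatives changed the covariates, the arrays, the grouping, the probe set and the filter, and the 4 that used array set 3, array set 4, the left-out arrays or all but the pair next above the line were chosen after seeing the data.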

Additional observations from a re-analysis of the deposited data

Results flagged for a closer look

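In 3 of 35 sets of 4 to 10 arrays examined, 1 array stood far from the others by Dixon's criterion, and chance flags about 1 in 20. Among the 6 left-out arrays below the gap, Deptor was at 9.06 in 1 array and from 7.90 to 8.29 in the other 5, and Sh3bp1 was at 8.13 in 1 array and from 7.19 to 7.46 in the other 5. Among the 5 low arrays of array set 3, D730005E14Rik was at 4.3 in 1 array and from 4 to 4.08 in the others, still below every value of the upper D730005E14Rik set.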

How the results depend on the processing

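Among genes not placed on chromosome 15 limma called 0 under all 14 alternatives, with 357 at an unadjusted p under 0.05 in the fit reported. The total of 12 called genes stayed between 9 and 14 with other covariates, groupings, arrays, probe sets or filters and was 14 without the 2 arrays next above the line, 2 in array set 3 alone and 0 in array set 4 alone. Within 10 Mb of Apobec3 the count was 11, and it was 7 with the Apobec3 value as a number, 2 in array set 3 and 0 in array set 4. On the rest of chromosome 15 the count was 1, and it was 2 in array set 1 alone, without arrays within 0.2 of the line, with the Apobec3 value as a number and without the 2 arrays next above the line. It was 0 with the probe set of largest SD, where Deptor differed by 0.63 with adjusted p = 0.476 by limma, and 0 in array sets 3 and 4. Fewer arrays entered the fits of single array sets. The cause of the other changes was not tested.

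Among the kept arrays, or all arrays together, D730005E14Rik kept its direction under every alternative it could be tested in, from 0.58 to 2, and its call under 12 of 13. In array set 4 alone its difference was 0.58 (adjusted p = 0.952 by limma), and under the stricter filter it was too dim to be tested. Mfng and Ly6e turned to 0.01 and 0.14 in array set 4, and the other 10 called genes kept their direction in these fits. In the left-out arrays alone D730005E14Rik differed by 0.99 and was not called (adjusted p = 0.68 by limma), and Mfsd3 (-0.01) and Sh3bp1 (-0.15) turned. Sh3bp1 kept its call under 6 of 14 alternatives and Tst under 9 of 14. Of the 12 genes, 9 were also called in array set 1 alone and 10 with all 66 animals. No paired analysis was possible because the arrays form 1 labelled group and carry no replicate numbers shared between groups.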
